A study of Mus musculus with 8 samples.

Results

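The 8 genes described are the mouse carbonic anhydrases Car1, Car2, Car3, Car4, Car8, Car9, Car12 and Car13. They were taken by symbol from a list and matched to the Ensembl identifiers of 45706 genes that were counted in crypts of the small intestine (SI) and colon (COL), and all 8 had enough reads to be tested. The rule itself used no measured value, but the list was chosen with earlier results of these data known. Crypts are the pits of the gut lining in which its stem cells divide. For RNA-Seq, crypts were released with EDTA from wild-type C57BL/6N mice, 2 of them female (donor mice 1 and 5) and 2 male (donor mice 2 and 3). Both tissues were taken from every mouse, and the 4 libraries of each are numbered SI1 to SI4 and COL1 to COL4 by their replicate label, so that mouse 5 gave SI4 and COL4. The age of the mice is not given in the sources used here. The paper's organoid protocol starts from proximal small intestine or from colon. Whether the same stretch of SI was used for these libraries, and which stretch of colon, is not stated. In tissue of many cell types, fewer cells of a type and less RNA per cell cannot be told apart.

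Carbonic anhydrases are zinc enzymes that turn carbon dioxide and water into bicarbonate and a proton, and back. In the gut epithelium they feed the exchangers that take up sodium and chloride, help to secrete bicarbonate into the mucus and buffer the pH around the cells. The family differs by place: Car1, Car2, Car3 and Car13 are cytosolic, Car4 is anchored to the outer face of the plasma membrane, Car9 and Car12 span the membrane with their catalytic part outside, and Car8 has lost a zinc-binding residue and is known as a non-catalytic relative.

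The libraries held between 15969428 (COL2) and 32908060 (COL4) counts. Their mitochondrial share was high in SI2 and SI3 as well as COL1 and COL2 (22.7% to 50.8%) and low in the 2 remaining libraries of each tissue (4.83% to 7.35%). Values within these levels are given beside the results. In SI the level goes with sex, as both male libraries are high and both female libraries low. These values are also not paired by mouse: mice 2 and 3 in SI stand against mice 1 and 2 in COL at the high level. At the low level mice 1 and 5 stand against mice 3 and 5. The 8 SI enterocyte markers were all higher in SI, with summed levels of 59501 to 140358 CPM in SI and 246 to 878 CPM in COL. CPM is the normalized read count, taken relative to a library's total after edgeR's TMM adjustment.

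Of the 8 genes, 5 were higher in COL crypts (Car1, Car2, Car4, Car8 and Car12), 1 was higher in SI crypts (Car13), and 2 did not pass the test (Car3 and Car9). The test was edgeR's quasi-likelihood test at an adjusted p-value below 0.05 over all 14491 genes tested. Across all these genes, 28.4% were called, 12.9% as higher in COL and 15.5% as higher in SI. The median log2 fold change of SI over COL was -2.86 for the 8 carbonic anhydrases and -0.09 for all genes tested. A log2 fold change of -3 or lower was found, among genes called, for 4 of the 8 (Car1, Car2, Car8 and Car12) and for 4.66% of all genes tested. For the 6 genes called, SI and COL libraries were fully apart in CPM, in the same direction in 4 of 4 mice. Over all genes tested, the libraries were fully apart in 33.5%, with COL above SI in 15.7% and SI above COL in 17.8%. For each of these 6 genes a two-sided exact permutation test gave p = 0.0286, the smallest value that 4 libraries against 4 allow. It restates that the libraries were fully apart and takes no account of the pairing by mouse.

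**Figure D1:**
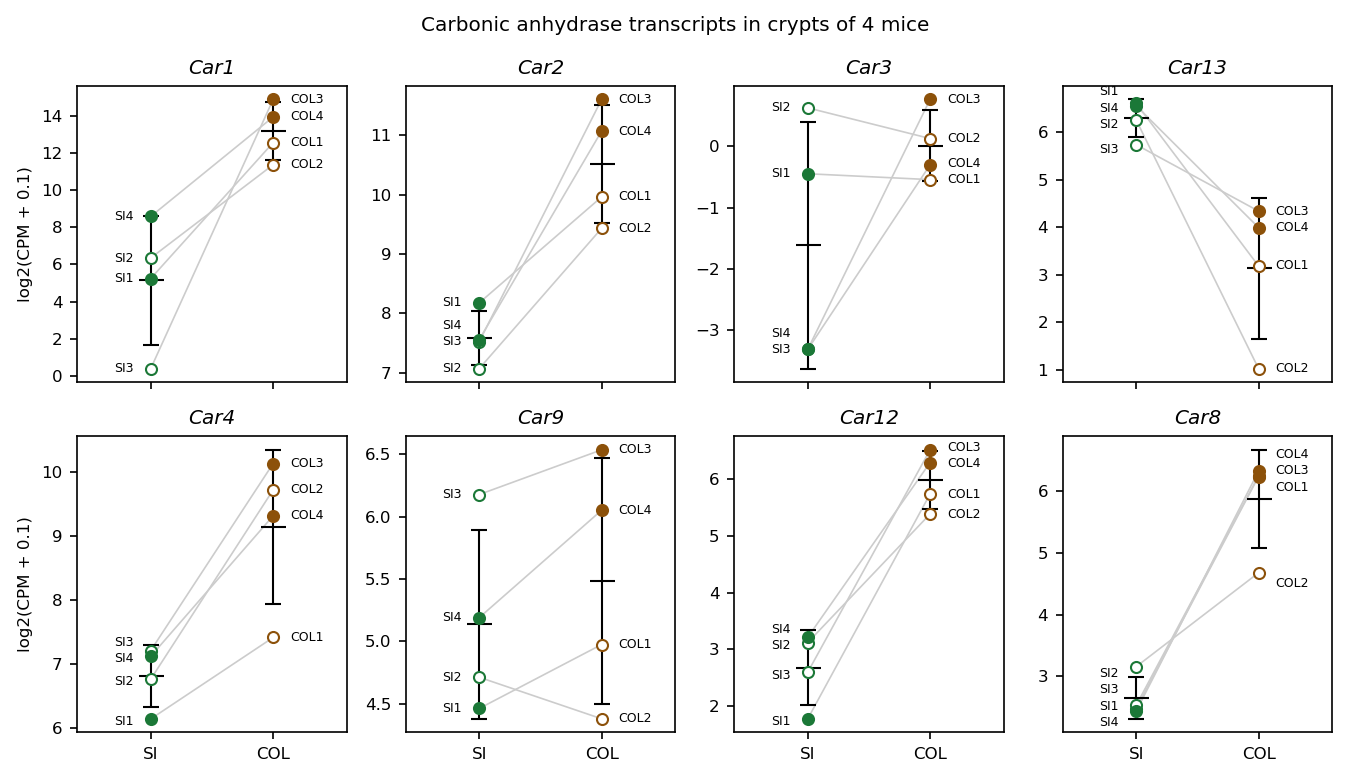
Level of each carbonic anhydrase as log2(CPM + 0.1) in the 4 SI (green) and 4 COL (brown) libraries, with grey lines joining libraries of the same mouse, open circles for libraries with a high mitochondrial share, and black bars for the mean ± SD (n = 4). Each panel has its own vertical scale, and Car3 and Car9 are the panels in which SI and COL overlap.

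Car4, Car9 and Car12, 3 of the 8 genes, were matched to RefSeq promoter windows of GRCm38.p6. Each window runs from 250 bases before to 50 bases after the RefSeq start. These are the membrane-bound members, of which Car9 is the classical target of the hypoxia-inducible factors. For Car9 the 30 bases before its RefSeq start are shown (chr4:43506996-43507025, plus strand). The hypoxia response core ACGTG, read on the opposite strand as CACGT, is in capitals. In the GENCODE annotation Car9 begins at 43506966, so that these bases lie inside its annotated span. For Car4 (chr11:84957504-84957753) and Car12 (chr9:66713436-66713685), both on the plus strand, the 250 bases before the start are shown as the promoters of a pair of genes that were both higher in COL crypts.
Car9: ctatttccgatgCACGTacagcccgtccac
Car4: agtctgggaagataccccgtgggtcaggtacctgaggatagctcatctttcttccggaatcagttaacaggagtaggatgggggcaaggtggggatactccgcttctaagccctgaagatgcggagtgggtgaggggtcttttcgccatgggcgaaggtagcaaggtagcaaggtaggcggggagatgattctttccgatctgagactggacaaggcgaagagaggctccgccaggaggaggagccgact
Car12: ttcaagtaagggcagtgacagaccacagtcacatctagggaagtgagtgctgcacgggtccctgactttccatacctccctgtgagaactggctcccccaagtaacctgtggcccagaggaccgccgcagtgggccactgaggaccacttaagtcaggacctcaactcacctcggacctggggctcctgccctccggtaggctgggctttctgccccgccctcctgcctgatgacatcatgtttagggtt
The windows were searched on both strands for ACGTG and for the core of the CDX factors, TTTAT or TTTAC. The match in the Car9 window began 18 bases before the RefSeq start. The Car4 window held ACGTG (as CACGT) and the CDX core (as ATAAA) only after the RefSeq start, in the part that is not shown. Its CACGT, at 84957756 to 84957760, lies before the start of Car4 in the GENCODE annotation (84957786). The Car12 window held neither set of letters. Of all 32851 promoter windows of this kind, 19.62% held ACGTG and 54.72% held TTTAT or TTTAC, so that a match in a single window is a description and no more.

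Car1 encodes a cytosolic enzyme that is known as a marker of colonic epithelium and is also abundant in red blood cells. It lies on chromosome 3 (14766216 to 14808368, minus strand, mm10; ENSMUSG00000027556). Its level was 37.7, 81.2, 1.22 and 382 CPM in SI1 to SI4 and 5998, 2632, 30001 and 15636 CPM in COL1 to COL4. The lowest COL library thus stood above the highest SI library, and within each tissue the libraries were widely spread, from 24 counts in SI3 to 8354 counts in SI4. Car1 exceeded its SI level 108-fold in COL (log2 fold change of SI over COL -6.75 ± 1.55, SE, n = 4 per tissue), with an adjusted p of 0.00713 by edgeR. The size of this difference rested on single libraries more than that of any other carbonic anhydrase: it was -8.42 without SI4 and -6.01 without COL3, and the call held in all 8 such fits. Within the libraries of high mitochondrial share the difference of mean log2(CPM + 0.1) was -8.59, and within those of low share it was -7.49.

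In COL crypts Car1 alone took 0.265% (COL2) to 3.90% (COL3) of all counts. In SI crypts it took at most 0.0304% of them. Relative to the COL library of the same mouse, the SI level of Car1 was 0.629% in mouse 1, 3.09% in mouse 2, 0.00406% in mouse 3 and 2.45% in mouse 5. For comparison, genes of the lists that were near 0 in SI were looked up after their values had been seen. Best2 and Atp12a, a chloride and bicarbonate channel and a proton pump of the colon, stood between 0% and 0.810% of the COL level of the same mouse, Saa1 between 0.135% and 1.40%, and the water channel Aqp8 between 0.313% and 24.6%. In the opposite direction, Apoa1, Fabp1 and Lct stood in COL at 0.00197% to 0.193% of their SI level. Car1 in SI2 and SI4 was above all of these values except that of Aqp8 in SI1. Since the genes were picked for their low levels, this order follows in part from the choice. The part of carried-over tissue in Car1 was not tested.

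Since Car1 and Car2 are also the carbonic anhydrases of red blood cells, a list of 7 red blood cell markers was set beside them. Of the 4 that could be tested, 3 were higher in COL (Hbb-bs, Hba-a1 and Hbb-bt, which encode globin chains), against 12.9% of all genes tested. The list summed to 0.137 to 1.75 CPM in SI and to 4.25 to 40.1 CPM in COL. Slc4a1, the anion exchanger of the red blood cell membrane, had 0 counts in all 8 libraries. COL3, with the highest level of Car1 at 30001 CPM, had the lowest sum of this list among the COL libraries, 4.25 CPM. COL4, with the next highest level of Car1 at 15636 CPM, had the highest sum, 40.1 CPM. The part of red blood cells in the levels of Car1 and Car2 was not tested.

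Car2 encodes the highly active cytosolic enzyme that is found in most transporting epithelia (chromosome 3, 14886273 to 14900770, plus strand; ENSMUSG00000027562). It stood at 289, 134, 184 and 188 CPM in SI1 to SI4 and at 997, 690.0, 3113 and 2151 CPM in COL1 to COL4. SI libraries lay within a narrow range, and every COL library was above it. The fold change was 8.76 toward COL (log2 -3.13 ± 0.55, adjusted p = 0.00151 by edgeR). In contrast to Car1, Car2 kept a clear level in SI crypts, with 5.89% to 29.0% of the COL level of the same mouse. The difference was -2.40 within the high and -3.47 within the low level of mitochondrial share.

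Car13, a further cytosolic enzyme, was the single member that was higher in SI crypts (chromosome 3, 14641727 to 14663002, plus strand; ENSMUSG00000027555). The SI libraries held 97.6, 76.6, 53.3 and 94.3 CPM and the COL libraries 8.98, 1.93, 20.1 and 15.8 CPM. COL2, with 31 counts, was the lowest of all. Car13 was 6.83-fold higher in SI (log2 2.77 ± 0.56, adjusted p = 0.00341 by edgeR). The difference was 3.90 within the high and 2.42 within the low level of mitochondrial share, and it was largest in mouse 2 (5.24) and smallest in mouse 3 (1.40). When libraries were scaled by their size alone, which moved the median of all genes from -0.09 to -0.82, Car13 stood at 1.95 with an adjusted p of 0.0206 by edgeR.

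Car3 encodes a cytosolic enzyme of low activity that is known from skeletal muscle and fat (chromosome 3, 14863512 to 14872523, plus strand; ENSMUSG00000027559). It was close to the limit of detection, with 14, 24, 0 and 0 counts in SI1 to SI4 and 20, 16, 60 and 34 counts in COL1 to COL4. Its levels overlapped between the tissues and its direction was split, with 2 mice on either side. No difference was detectable at this depth (log2 -0.92, 95% interval -3.46 to 1.61, adjusted p = 0.592 by edgeR). Of 12 markers of fat, muscle and stroma, 5 could be tested and none was called by edgeR, and their sum was 6.09 to 39.4 CPM in SI and 10.6 to 35.0 CPM in COL, most of it from Acta1 in all libraries but SI2. None of the 5 had an unadjusted p below 0.05, DESeq2 called 0 and limma-voom 1. Adipoq, a hormone of fat cells, had 0 counts in all libraries, and Plin1, Fabp4, Cfd and Ckm had 0 counts in all SI libraries.

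Car4 encodes the enzyme that is tethered to the cell surface by a lipid anchor, on the luminal face of the colon among other sites (chromosome 11, 84957786 to 84966044, plus strand; ENSMUSG00000000805). Its level was 70.3, 108, 148 and 139 CPM in SI1 to SI4 and 170.4, 847, 1128 and 639 CPM in COL1 to COL4. COL1 lay close to the SI libraries, and the other 3 COL libraries were well above them. Car4 was 5.98-fold higher in COL (log2 -2.58 ± 0.54, adjusted p = 0.0041 by edgeR). The difference was -1.59 within the high and -3.10 within the low level of mitochondrial share.

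Car12, a transmembrane enzyme with its active site outside the cell, was low in SI crypts (chromosome 9, 66713686 to 66766845, plus strand; ENSMUSG00000032373). It stood at 3.31, 8.58, 5.93 and 9.16 CPM in SI1 to SI4 and at 53.5, 41.8, 91.9 and 78.6 CPM in COL1 to COL4. Libraries of the same tissue were close to each other and the tissues were far apart. The fold change was 9.86 toward COL (log2 -3.30 ± 0.39, adjusted p = 0.000108 by edgeR). Within the high and the low level of mitochondrial share the difference was -2.71 and -3.92.

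Car8, the non-catalytic relative, is best known from cerebellar neurons, where it binds an intracellular calcium channel (chromosome 4, 8143362 to 8239041, minus strand; ENSMUSG00000041261). Its level was 5.48, 8.82, 5.68 and 5.31 CPM in SI1 to SI4 and 75.2, 25.5, 75.8 and 80.0 CPM in COL1 to COL4. COL1, COL3 and COL4 lay within a few CPM of each other, with COL2 apart from them but still above every SI library. Car8 was 10.2-fold higher in COL (log2 -3.34 ± 0.39, adjusted p = 9.8e-05 by edgeR), the lowest adjusted p of the 8 genes. The difference was -2.61 within the high and -3.83 within the low level of mitochondrial share.

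Car9 is the second transmembrane enzyme of the group and is known for its induction under low oxygen (chromosome 4, 43506966 to 43513729, plus strand; ENSMUSG00000028463). Its level was 21.9, 26.1, 72.3 and 36.4 CPM in SI1 to SI4 and 31.3, 20.7, 92.7 and 66.2 CPM in COL1 to COL4. Both tissues covered nearly the same range, and mouse 3 had the highest library of each tissue. The test found no difference (log2 -0.43, 95% interval -1.52 to 0.66, adjusted p = 0.562 by edgeR), and this interval still allows a change of either direction. Within the levels of mitochondrial share the direction was split, with 0.77 in the high and -1.47 in the low level. Scaled by library size alone, Car9 stood at -1.20 with an adjusted p of 0.0937 by edgeR, where the median of all genes was -0.82. An antisense gene, Gm12454, lies over Car9 and shares 98 of 1974 stretches of 50 bases with it. Whether the counting used the strand is not given in the sources used here, so reads of this stretch cannot be told apart. Gm12454 itself was not called (-0.84, adjusted p = 0.117 by edgeR). Car1 overlaps Gm16399, and Car8 overlaps Gm11799 and Gm25355, all of them too low to be tested.

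For a view of the set as a whole, CPM values were divided by the exon length of each gene in kb. On this scale the 8 genes summed to 209 to 514 CPM per kb in SI libraries and to 2847 to 25980 CPM per kb in COL libraries. By mean level, the order in COL was Car1 (10871 ± 9827 CPM per kb, SD, n = 4), Car2 (717 ± 459), Car4 (354 ± 205), Car9 (22.9 ± 14.3), Car8 (16.6 ± 6.71), Car12 (8.75 ± 3.01), Car13 (5.10 ± 3.47) and Car3 (0.340 ± 0.158). Neighbours in this order were apart in all 4 libraries with ranges that did not overlap between Car1 and Car2, Car4 and Car9, and Car13 and Car3, and the remaining neighbours overlapped.

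In SI the order of the mean levels was Car1 (100.7 ± 140 CPM per kb, SD, n = 4), Car2 (81.9 ± 26.8), Car4 (59.2 ± 17.8), Car13 (35.0 ± 8.83), Car9 (17.0 ± 9.94), Car8 (1.64 ± 0.434), Car12 (0.888 ± 0.354) and Car3 (0.182 ± 0.240). The lead of Car1 rested on SI4 (306 CPM per kb), and Car1 was above Car2 in 2 of 4 libraries. Ranges of neighbours did not overlap between Car9 and Car8 or between Car8 and Car12. Car13 moved from the fourth place in SI to the seventh in COL.

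As a share of this sum, Car1 made up 86.8% ± 8.55 in COL (SD, n = 4, 74.1% to 92.5%) and 25.4% ± 25.6 in SI (0.467% to 59.6%). Car2 made up 31.5% ± 15.0 in SI and 7.27% ± 2.14 in COL. Car4 made up 22.3% ± 10.3 in SI and 5.33% ± 6.54 in COL, where COL2 stood out with 15.1%. Car13 contributed 12.9% ± 4.28 in SI and 0.0465% ± 0.0197 in COL. SI crypts thus held transcripts of several members in shares that differed between libraries, whereas Car1 took most of the sum in every COL library. With a single SI library per mouse, differences between mice cannot be told apart from differences between preparations. Shares follow from each other, so that those of the other members depend on the level of Car1.

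**Figure D2:**
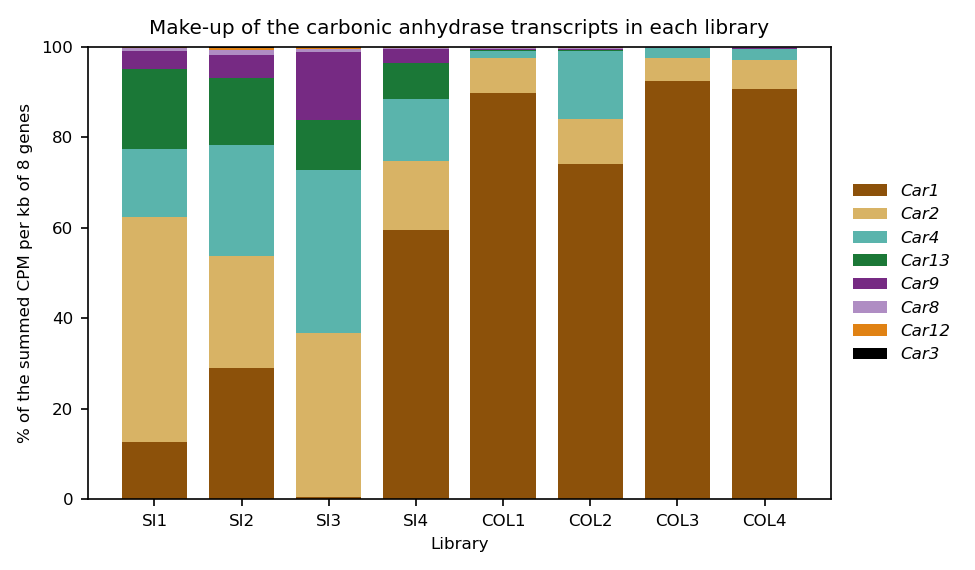
Share of each of the 8 carbonic anhydrases in their summed CPM per kb, as a percentage, in each of the 8 libraries. Car1 takes 74.1% to 92.5% of the bar in COL libraries and 0.467% to 59.6% in SI libraries, where Car2, Car4, Car13 and Car9 take most of the rest.

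Ratios within a library do not depend on its scaling. The level of Car13 per kb was 0.306 to 0.602 times that of Car2 in SI libraries and 0.00294 to 0.00949 times in COL libraries. Car12 relative to Car9 was 0.0249 to 0.0997 in SI and 0.301 to 0.613 in COL, so that the balance of the transmembrane enzymes differed between the tissues in every library. Car4 relative to Car2 overlapped, with 0.300 to 0.996 in SI and 0.211 to 1.51 in COL. These ratios are descriptions and were not tested.

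Car13, Car1, Car3 and Car2 lie side by side within 259 kb of chromosome 3. They do not share a direction: Car13 was higher in SI, Car1 and Car2 were higher in COL, and Car3 was not called. Within 500 kb on either side of this span the annotation holds 24 genes, of which 7 were tested. The 3 tested genes that are no carbonic anhydrases lie beyond Car13, and none was called (Lrrcc1 with a log2 fold change of -0.60 and an adjusted p of 0.307 by edgeR, E2f5 with -0.63 and 0.232, and 1810022K09Rik with -0.33 and 0.400). Of these 3, 0 had an unadjusted p below 0.05, and neither DESeq2 nor limma-voom called any. With scaling by library size alone, which shifts all genes toward COL, these 3 were called as higher in COL. The pseudogene Gm5843 within the cluster shares 166 of the 1145 stretches of 50 bases in the Car1 transcript, which is 14.5%. Its own counts in COL were 29, 6, 246 and 104, or 0.0139% to 0.0219% of those of Car1, and it was too low to be tested.

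**Figure D3:**
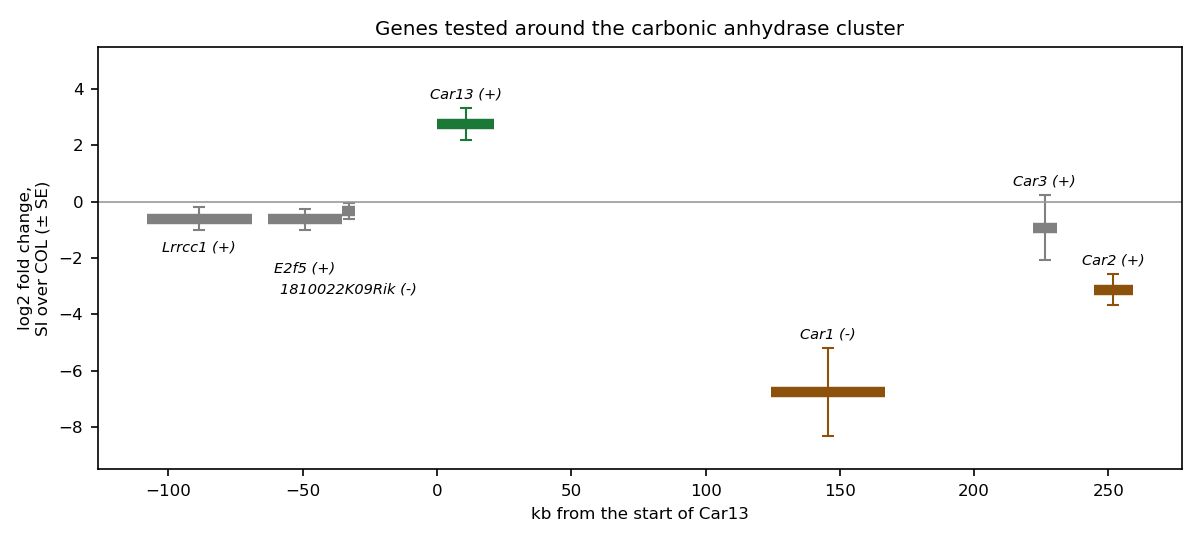
Log2 fold change of SI over COL (± SE, n = 4 per tissue) for the 7 genes tested around the cluster on chromosome 3, drawn as bars over each gene's length against the distance from the start of Car13 in kb, with the strand in brackets. Green marks a gene called as higher in SI, brown as higher in COL and grey not called, and Car13 at 2.77 and Car1 at -6.75 lie at the extremes.

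Of the 8 other genes of the family, Car5a, Car5b, Car6, Car7, Car10, Car11, Car14 and Car15, only Car7 had enough reads for the test. This cytosolic enzyme had 67, 2, 32 and 5 counts in SI1 to SI4 and 16, 0, 3 and 37 counts in COL1 to COL4, and it was not called (log2 1.85 ± 1.16, adjusted p = 0.262 by edgeR). Car11, a non-catalytic relative, had 0 counts in all SI libraries and 32, 1, 44 and 15 counts in COL1 to COL4. It did not pass the filter, and it was called as higher in COL without a filter and when SI1, SI2, SI3, SI4 or COL2 was left out. The filter was applied anew whenever a library was left out. With 0 counts in SI, Car11 can pass it only through COL, so these calls are no separate support. Car5b, a mitochondrial enzyme, had 0 to 3 counts in SI and 7 to 13 in COL. The remaining 5 had at most 20 counts in any library. Together these 8 genes reached 0.549 to 3.31 CPM in SI and 1.49 to 2.70 CPM in COL, against 445 to 854 CPM and 4260.0 to 34524 CPM for the 8 members.

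The transporters that work with these enzymes were taken as a list of 21 genes, of which 18 could be tested. Of these, 4 were higher in SI (Slc26a6, Slc4a5, Slc16a3 and Slc4a4), 5 were higher in COL (Best2, Atp12a, Slc4a2, Slc26a2 and Slc16a1), and 9 were not called. The calls of Best2, Atp12a, Slc4a2 and the 4 genes higher in SI held when any single library was left out. Those of Slc26a2 and Slc16a1 did not: the number higher in COL was 4 without SI4, COL1 or COL2 and 3 when each of the other 5 libraries was left out in turn. It was also 3 when at least 10 counts were required in every library, but there Best2 and Atp12a left the test because of their low SI counts. With scaling by library size alone it was 10. The median log2 fold change of the 18 genes was -0.32, against -0.09 for all genes, and 28.4% of all genes were called. Slc26a6, an exchanger of chloride for bicarbonate in the brush border, had 798 to 1578 CPM in SI and 1.53 to 3.71 CPM in COL (log2 8.75 ± 0.54, adjusted p = 5.9e-06 by edgeR). Slc4a4, the sodium bicarbonate cotransporter, had 86.3 to 121 CPM in SI and 35.5 to 45.6 CPM in COL (log2 1.35 ± 0.24, adjusted p = 0.00143).

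On the side of COL, Best2 is known as the bicarbonate channel of colonic goblet cells. It had 2 counts over all SI libraries and 104, 240, 612 and 747 counts in COL1 to COL4. Atp12a, the proton pump of the colon, had 0 to 6 counts in SI and 214 to 1211 counts in COL. Slc4a2, the chloride and bicarbonate exchanger of the basal membrane, differed less (log2 -1.42 ± 0.28, adjusted p = 0.00315 by edgeR). Slc16a1, a proton-coupled carrier of lactate and short-chain fatty acids, stood at 26.8 to 40.2 CPM in SI and 41.1 to 97.3 CPM in COL. Slc26a3, the main chloride and bicarbonate exchanger of the colonic surface, was not called (log2 -0.57, 95% interval -1.53 to 0.38, adjusted p = 0.358 by edgeR), and neither was the chloride channel Cftr (-0.46, adjusted p = 0.365). The sodium and proton exchanger Slc9a3 was 1.11 toward SI with an adjusted p of 0.127.

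**Figure D4:**
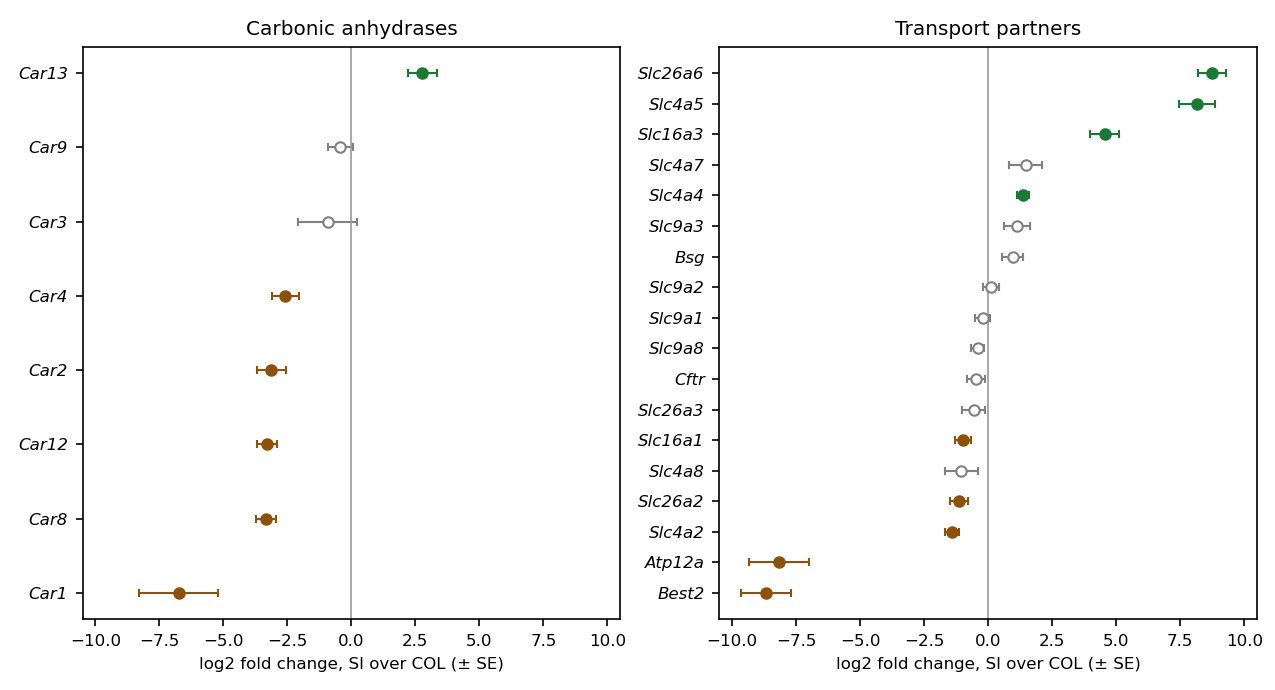
Log2 fold change of SI over COL (± SE, n = 4 per tissue) for the 8 carbonic anhydrases and for the 18 transport partners tested, with filled points for genes with an adjusted p below 0.05 by edgeR. The 5 filled carbonic anhydrases higher in COL lie left of 0 and Car13 right of it, while the partners hold 4 filled points on the right and 5 on the left.

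Car9, Car12 and a list of 13 other genes that respond to low oxygen were compared. All 13 were tested, with 1 higher in SI (Bnip3), 4 higher in COL (Slc2a1, P4ha1, Ndrg1 and Pdk1) and 8 not called, and their median log2 fold change was -0.17. Slc2a1, P4ha1 and Bnip3 were called whichever library was left out, whereas without SI1, SI4, COL3 or COL4 only 2 genes were called as higher in COL. The number higher in SI was 3 with DESeq2, limma-voom or the mitochondrial share as a term, 2 without a filter or without SI2, COL2 or COL3, and 0 with scaling by library size alone. The glucose carrier Slc2a1 had 2.18 to 6.07 CPM in SI and 43.5 to 162 CPM in COL (log2 -4.53 ± 0.50, adjusted p = 7.0e-05 by edgeR). Bnip3, a mitophagy receptor, was 1.58 ± 0.39 toward SI (adjusted p = 0.0104 by edgeR). Ldha, the lactate dehydrogenase subunit, had a higher mean in SI without passing the test (1.43, adjusted p = 0.0556), and the growth factor Vegfa was -0.05. The genes of this list that were called went in both directions. Car12 was called as higher in COL (log2 -3.30, adjusted p = 0.000108 by edgeR), and Car9 was not called. Over all genes tested, 12.9% were called as higher in COL and 15.5% as higher in SI. The part of low oxygen in these differences was not tested.

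Markers of other cell types were listed beside these genes. The counts called are to be read against all genes tested, of which 12.9% were called as higher in COL and 15.5% as higher in SI. Of the 8 goblet and deep crypt secretory markers, 4 were higher in COL (Muc2, Agr2, Spdef and Reg4, of which Reg4 lost its call with the donor mouse as a block) and none in SI (0 by edgeR, DESeq2 and limma-voom, and 0 at an unadjusted p below 0.05), and the list summed to 2755 to 10951 CPM in SI and to 12421 to 22611 CPM in COL. Of 11 surface colonocyte markers, 4 were higher in COL (Saa1, Aqp8, Guca2a and Muc3, where Slc37a2 was called in place of Muc3 with the block) and 3 in SI (Guca2b, Krt20 and Ceacam20). This list summed to 7369 to 17587 CPM in SI and to 2625 to 7757 CPM in COL. Paneth cell markers were higher in SI in 5 of 6 cases. Of 8 epithelial markers, 2 were higher in SI (Vil1 and Cldn7, or 1 with the donor mouse as a block) and Krt18 was higher in COL. Among the stem cell markers only Olfm4 of 6 was called, toward SI, among the enteroendocrine markers only Pcsk1n of 5, toward COL, and of the 5 tuft cell markers 0 were called by edgeR, DESeq2 or limma-voom, with 0 at an unadjusted p below 0.05. Of 6 immune markers, 5 of them tested, Cd3e was higher in SI (3 with the donor mouse as a block) and Cd14 in COL. The part of cell composition in the differences of the carbonic anhydrases was not tested.

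For each of the 6 genes called, the 3 genes whose log2 CPM profile over the 8 libraries came closest to it were looked for among 10630 genes, by the root-mean-square difference after centring. This distance is not scaled by the spread of a gene, so that its size does not rank the members by likeness. It was largest for the matches of Car1. Slc6a14, an amino acid transporter, stood at 0.54 from Car1, and Sptssb at 1.49. Slc6a14 had 1.13, 1.81, 0 and 11.8 CPM in SI1 to SI4 and 145, 193, 934 and 567 CPM in COL1 to COL4, so that SI3 was lowest and SI4 highest among the SI libraries for both genes, and COL3 highest of all. Around Car2 lay Cela1 (0.35), Ccl6 (0.43) and Selenbp1 (0.44). Closest to Car4 were Sh3tc1 (0.40), Prdx6 (0.44) and Dnase1l2 (0.44). Those of Car8 were 5330417C22Rik (0.39), Capg (0.40) and Reep5 (0.40). Car12 had the smallest distances, with P2ry6 (0.26), Slc25a35 (0.28) and Adra2a (0.29), and Car13 was next to Slc35f2 (0.30), Aqp11 (0.35) and Ttyh2 (0.36). All of these genes differ between the tissues themselves, and the likeness comes from 8 libraries that share depth and tissue.

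The difference between SI and COL was also compared between the sexes, with 2 mice each. None of the 8 carbonic anhydrases differed by the interaction of tissue and sex in edgeR, where the lowest adjusted p was 0.925 and none had an unadjusted p below 0.05. Across all genes, 0 of 14491 (0.0%) were called and 761 (5.25%) had an unadjusted p below 0.05. For Car1 the mean difference was -6.33 in female and -9.75 in male mice, and the difference of male minus female was -2.94 ± 2.47 (SE). SI3, with 24 counts, is from a male mouse. With 2 mice a sex, only very large differences could be found.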

How the data were processed

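Freshly isolated SI and COL crypts of 4 wild-type donor mice were profiled by RNA-Seq, with 4 libraries per tissue. The authors trimmed the reads, aligned them to mm10 and counted them per gene with STAR, and the submitters' processing notes name Trimmomatic 0.36 and STAR 2.5.2b. The deposited values are whole-number counts per Ensembl gene without normalization. Neither the release of the annotation nor the strand setting is given in the sources used here. Of the 45706 identifiers, 45143 were given symbols and positions by GENCODE vM21, whose assembly GRCm38 is that of mm10. The mitochondrial levels were split at the widest gap in fold between libraries.

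Tests used edgeR 4.0.16 in R 4.3.3 (glmQLFit and glmQLFTest, TMM, filterByExpr by tissue) with Benjamini-Hochberg adjustment over the 14491 genes tested and no term for the donor mouse. Log2 values of single genes used an offset of 0.1 CPM, and profiles used a prior count of 2 and a mean log2 CPM of at least 1. Exact permutation tests were two-sided over 70 assignments. SI and COL libraries of the same mouse are paired by the donor numbers in the labels. Their deviations from the tissue means correlated across genes, which are not independent replicates, at -0.24, 0.39, -0.08 and 0.33 for mice 1, 2, 3 and 5. No 2 libraries of a tissue were repeats of each other, with a chi-square per gene of 91.7 or more. For most members the precision is set by the spread between mice, since their counting error is small. Shared 50-base stretches were taken from the longest transcript of a gene and looked for, on either strand, in all transcripts of other genes. The fits were tested on simulated counts.

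Named were the members, the rest of the family, the transport and hypoxia lists, the tested genes within 500 kb of the chromosome 3 cluster and the 3 closest profiles of each member called. Of these profiles, 1 is not reported here. The members and lists were chosen with earlier results of these data known. Alternatives were library-size scaling, RLE size factors, DESeq2 1.42.0, voom of limma 3.58.1, a donor block in edgeR or voom, no filter, at least 10 counts in every library, the mitochondrial share as a term, removal of the 18 genes over 1% of any library, other gene lengths and leaving out each library in turn.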

Additional observations from a re-analysis of the deposited data

Results flagged for a closer look

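In 2 of the 16 sets of 4 libraries formed by the 8 carbonic anhydrases and the 2 tissues, a single library lay farther from the others than Dixon's test allows, and chance gives this in about 1 of 20 sets. Both concern Car8 and both libraries come from mouse 2. Car8 in SI2, with 8.82 CPM, was the highest of the SI libraries, and Car8 in COL2, with 25.5 CPM, was the lowest of the COL libraries. In mouse 2 the difference of SI and COL for Car8 was therefore -1.52 on the log2 scale, against -3.89 to -3.72 in the other mice. COL2 had the highest mitochondrial share (50.8%) and the lowest total count of all libraries, and the part of either in this value was not tested. Without COL2 the log2 fold change of Car8 was -3.61 and the call held.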

How the results depend on the processing

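The counts of 5 carbonic anhydrases higher in COL and 1 higher in SI held under every alternative except the removal of the 18 genes over 1% of a library, which takes out Car1 itself and left 4 higher in COL. With the donor mouse as a replicate block, 4072 of all genes were called in place of 4116, and no call of a carbonic anhydrase, partner or hypoxia gene changed. Leaving out each library in turn, the 6 calls held in all 8 fits, with log2 fold changes of -8.42 to -6.01 for Car1, -3.36 to -2.68 for Car2, -2.90 to -2.24 for Car4, -3.61 to -3.22 for Car8, -3.51 to -3.06 for Car12 and 2.46 to 3.16 for Car13. Car9 moved between -0.89 and -0.01 and Car3 between -2.15 and -0.48, without a call. Scaling by library size alone, whose own shift of the median was -0.73, called 1115 genes toward SI and 4788 toward COL, in place of 2253 and 1863. It also gave 10 transport partners higher in COL and 0 hypoxia genes higher in SI, where Slc4a4 and Bnip3 lost their calls. Requiring at least 10 counts in every library left 3 partners higher in COL, as Best2 and Atp12a were no longer tested. The hypoxia genes higher in SI numbered 3 with DESeq2, limma-voom, its block and the mitochondrial term, and 2 without a filter, and the cause was not tested. Without a filter, 1 other carbonic anhydrase was higher in COL (Car11). Leaving out a library gave 0 to 2 of these (Car11 and Car5b), 3 to 4 partners higher in COL, and hypoxia genes numbering 1 to 2 higher in SI and 2 to 4 higher in COL. The share of each carbonic anhydrase in the sum depends on the gene length used: that of Car12 in SI was 0.324% with exon length, 0.522% with the longest transcript and 1.22% without length.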
